A study of Mus musculus with 8 samples.

Results

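The Toll-like receptors Tlr1, Tlr2, Tlr3, Tlr4, Tlr5, Tlr6, Tlr7, Tlr9 and Tlr13 and the co-receptor Cd14 were examined in bone marrow progenitors of mice. The members were the genes whose RefSeq transcript is named for a non-control probe of the array: 11 probes for 10 genes, of 55681 non-control probes in all, with 2 probes for Tlr7. A probe was tested where it was well above background, as the scanner software flags it, on both arrays of at least 1 group. By that filter 10 probes of 9 genes were tested among 28088 genes or transcripts in all, and Tlr3 was not tested.

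The study compared wild-type mice with mice deficient in ACKR1, a chemokine-binding receptor of the atypical family, which does not signal through G proteins. In each genotype 2 populations were sorted by flow cytometry from bone marrow: LSK cells, which lack lineage markers and carry Sca1 and cKit, and granulocyte-macrophage progenitors (GMP), which lack lineage markers and Sca1 and carry cKit, CD34 and CD16/32. The labels give 2 replicates in each of the 4 groups (LSK wild type, LSK deficient, GMP wild type, GMP deficient), so there were 8 arrays. All mice were female, 12 weeks old and of the strain written C57/Bl6; the deficient line had been crossed to C57Bl/6J for more than 12 generations and was kept heterozygous, and wild-type and deficient mice were littermates from a pathogen-free unit. How the gene was disrupted is not given in the sources used here. Nothing says that the 2 replicates of a group came from separate animals, so the p-values cover no more than the variation from array to array, part or all of which may be technical. In sorted bulk RNA, fewer cells of a type and less RNA per cell cannot be told apart.

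Toll-like receptors bind conserved parts of microbes and signal through adaptors such as Myd88 to nuclear factor kappa B and interferon regulatory factors. Receptors for lipids and proteins sit on the cell surface, and those for nucleic acids sit in endosomes, where the chaperone Unc93b1 takes them. Blood-forming stem and progenitor cells are known to carry some of these receptors, and their triggering can drive progenitors towards myeloid fates. Cd14 hands lipopolysaccharide to Tlr4 and is a common marker of monocytes and macrophages.

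The levels below are log2 of the array's processed signal minus the log2 of that array's 75th percentile, so a level of 0 is the 75th percentile, and levels are compared between arrays for 1 probe, not between probes. Differences are differences of mean levels on that log2 scale, fitted with limma over all 28088 features. A difference was called where its Benjamini-Hochberg adjusted p over all features was under 0.05.

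The groups were checked before the comparisons. The 8 LSK markers of a fixed list (mean level) lay between 3.42 and 3.89 on the wild-type LSK arrays and between 0.49 and 0.73 on the wild-type GMP arrays, and the 9 GMP markers lay between 2.15 and 3.21 and between 6.34 and 6.36. The LSK markers lay between 1.94 and 2.84 on the deficient LSK arrays, and the GMP markers between 5.20 and 5.81 on the deficient GMP arrays, below wild type in both. The share of non-control spots well above background was 62.5% to 73.1% on 7 arrays and 34.3% on LSK deficient replicate 2, whose 75th percentile was 24.6 signal units against 196 to 766. On that array the lowest signal well above background stood at a level of −1.44, and 8 of the 11 member probes were not well above background. Its correlations with the other arrays were 0.690 to 0.784, and the highest correlation of GMP deficient replicate 1 with another array was 0.905. The probe for Ackr1 read −1.04 to −0.44 on the wild-type arrays and −0.85 to −0.06 on those labelled deficient, with an average difference of 0.22 (SE 0.431, limma adjusted p = 0.85). Whether that probe lies in the disrupted part of the gene is not given in the sources used here, so the genotype rests on the labels, and each direction below is between arrays labelled deficient and arrays labelled wild type. All 8 arrays were on 1 slide, with the deficient arrays in 1 of its columns and the wild-type arrays in the other, so genotype and slide column cannot be told apart. The LSK arrays were in its rows 1 and 3 and the GMP arrays in rows 2 and 4, so population and slide row cannot be told apart either.

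Other cell types' markers differed between the genotypes, and these values stand beside all genotype results. The mean level of 11 mature neutrophil markers was −3.44 to −2.36 on the 4 wild-type arrays and 4.56 to 5.01 on the 4 deficient arrays, with 6 to 9 and 10 to 11 of the 11 well above background. The mean of 9 erythroid markers was −2.17 to −0.40 and 4.35 to 4.97, and that of 6 B cell markers −2.94 to −2.45 and −0.92 to −0.60. The mean of 6 megakaryocyte and platelet markers was −3.02 to −2.55 on wild-type and −1.10 to −0.18 on deficient GMP arrays, and −0.91 on both wild-type against −1.26 and −0.14 on the deficient LSK arrays. The mean of 8 monocyte and macrophage markers was −1.41 to −0.86 on wild-type and 0.39 to 0.95 on deficient LSK arrays. On GMP arrays it was 2.18 to 2.49 for wild type and 2.53 to 2.85 for the deficient genotype. The mean of 9 dendritic cell markers was 1.84 to 2.45 on wild-type and 1.33 to 1.80 on deficient LSK arrays. On GMP arrays it was 0.22 to 0.36 for wild type and 0.97 on both deficient arrays. The mean of 4 T and NK markers was 1.56 to 1.61 on wild-type and 1.54 to 2.24 on deficient LSK arrays, which overlapped. On GMP arrays that mean was 1.14 to 1.27 and 1.39 to 1.98. The part of all these cell types in the members' differences was not tested.

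The 250 bases before the start of 3 members are shown, because Tlr1 was one of the genes called between the populations, Tlr13 was the receptor that differed most between the genotypes on average, and Tlr6 neighbours Tlr1 on chromosome 5 and encodes the other partner of Tlr2 without a like difference. The sequences are RefSeq's on GRCm38.p6, written 5′ to 3′ on the strand of the gene, and the array's own annotation uses another build, mm9. Capitals mark GAGGAA, a core bound by ETS factors such as PU.1, or TTGCNNAA, a core bound by C/EBP factors; both drive myeloid genes. The motifs were chosen after the members' values were seen.
Tlr1 (chr5:64933559-64933808, minus strand): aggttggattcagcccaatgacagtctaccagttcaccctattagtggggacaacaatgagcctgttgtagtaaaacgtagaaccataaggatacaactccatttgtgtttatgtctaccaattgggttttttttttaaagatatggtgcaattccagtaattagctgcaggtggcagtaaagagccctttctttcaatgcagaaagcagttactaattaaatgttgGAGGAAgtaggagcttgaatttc
Tlr13 (chrX:106143025-106143274, plus strand): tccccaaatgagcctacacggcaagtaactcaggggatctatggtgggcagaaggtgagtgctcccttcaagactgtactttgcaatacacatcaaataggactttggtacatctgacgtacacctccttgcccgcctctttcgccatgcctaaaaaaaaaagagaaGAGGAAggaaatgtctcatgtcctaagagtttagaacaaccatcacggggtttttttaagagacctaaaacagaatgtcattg
Tlr6 (chr5:64959167-64959416, minus strand): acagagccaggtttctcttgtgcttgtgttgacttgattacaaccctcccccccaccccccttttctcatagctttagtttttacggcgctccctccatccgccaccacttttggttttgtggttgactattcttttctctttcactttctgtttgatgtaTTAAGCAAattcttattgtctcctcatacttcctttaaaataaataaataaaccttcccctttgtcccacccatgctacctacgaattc

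Both strands were searched in windows of 7 members, 9 windows in all. Counting the base before the start as −1, GAGGAA began at −23 in the Tlr1 window shown, at −83 in Tlr13 and at −112 in Tlr9, each on the gene's strand, and was present in 23.3% of all 32851 promoters of that length. TTGCNNAA lay on the opposite strand, its leftmost base at −89 in the Tlr6 window shown and at −95 in Tlr3, and was present in 9.56% of all promoters. Neither string was in the other windows of Tlr1 and Tlr6 or in those of Tlr2 and Tlr5. A match is a run of letters, not a shown binding site.

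In wild-type mice, GMP differed from LSK in Cd14, which was higher in GMP. Tlr1 was also called higher in GMP. Its probe passed the filter only through the GMP groups, where it is high, so that call is a description. The fitted ratio was 43.1-fold for Cd14, and 24.3-fold for Tlr1, whose size is uncertain because 1 of its 2 wild-type LSK readings was not well above background. These were the 2 of 9 members called, where 0.502% of all features were called higher and 1.85% in either direction; the same 2 had an unadjusted p under 0.05, beside 8.4% of features. The median difference over the 9 members was 0.27, beside 0.01 over all features; without GMP wild-type replicate 2 both were 0.03, and without LSK wild-type replicate 2 they were 0.07 and −0.15. In the deficient mice 0 of 9 members were called between the populations, and 0% of all features; 1 member, and 16.7% of features, had an unadjusted p under 0.05. Both deficient GMP arrays lay above both deficient LSK arrays for 2 members (Cd14 and Tlr1), beside 18.4% of features, and below them for Tlr5, beside 18.5%.

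Cd14 read −4.23 and −3.61 on the wild-type LSK arrays and 1.59 and 1.44 on the wild-type GMP arrays. The groups were far apart and all 4 readings were well above background. The difference was 5.43 (SE 0.676, 95% interval 3.92 to 6.94, n = 2 arrays a group, limma adjusted p = 0.00545). On the deficient arrays Cd14 read −2.43 and −1.71 in LSK, the second not well above background, and −0.79 and 0.18 in GMP. The deficient groups were closer, with GMP still above LSK on both arrays, by 1.77 (SE 0.676, limma adjusted p = 0.248). The order of the group means was wild-type LSK, deficient LSK, deficient GMP, wild-type GMP (−3.92, −2.07, −0.30 and 1.51), and no neighbours in that order overlapped. The call in wild type was lost when any 1 of the 4 wild-type arrays was left out, with differences of 5.12 to 5.74 and limma adjusted p from 0.0569 to 0.0781. Of the 8 monocyte and macrophage markers, 5 were called higher in wild-type GMP than in LSK, beside 0.502% of all features. Their mean was 2.18 to 2.49 on wild-type and 2.53 to 2.85 on deficient GMP arrays, and their median difference between these genotypes was 0.0975. Csf1r and Adgre1 were lower on both deficient GMP arrays, as Cd14 was. Fcgr1 was higher on both, but it passed the filter only through deficient GMP. The other markers of the list overlapped. The part of these markers in the Cd14 values was not tested.

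Tlr1, which pairs with Tlr2 to bind triacylated lipoproteins, read −6.33 and −4.34 on the wild-type LSK arrays, the first not well above background, and −0.48 and −0.99 on the wild-type GMP arrays. Its probe passed the filter only through the GMP groups, where it is high. The groups did not overlap, and the difference was 4.61 (SE 0.792, 95% interval 2.83 to 6.38, limma adjusted p = 0.0188). In deficient mice it read −3.38 and −3.07 in LSK, the second not well above background, and −2.47 and −1.52 in GMP, a difference of 1.23 (limma adjusted p = 0.452). The order of groups was that of Cd14, with means of −5.34, −3.23, −2.0 and −0.73 and no overlap between neighbours. The size in wild type changed with the processing: with normexp background correction it was 2.03 (limma adjusted p = 0.266), and with quantile normalization 4.47 (limma adjusted p = 0.243). It was also not called with median scaling (4.93, limma adjusted p = 0.0669), without the filter on dim probes (4.61, limma adjusted p = 0.0608), or when any 1 wild-type array was left out (3.61 to 5.6, limma adjusted p from 0.0616 to 0.225).

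Tlr2, the shared partner of Tlr1 and Tlr6, read −0.00 and 0.25 in wild-type LSK and 2.08 and 1.98 in wild-type GMP. The wild-type groups did not overlap, but the difference of 1.91 (SE 0.872) did not pass the test over all features (limma adjusted p = 0.614). It passed with array weights (limma adjusted p = 0.0327, beside 7.55% of all features called). Leaving out LSK deficient replicate 2 and GMP deficient replicate 1 could not change its size, which comes from wild-type arrays only. In deficient mice Tlr2 read 1.17 and −1.41 in LSK, the second not well above background, and 2.16 and 1.13 in GMP, and these groups overlapped. That difference of 1.76 was not called (limma adjusted p = 0.341); without both arrays named above it was −0.05. Without LSK deficient replicate 1 it was 3.05 (limma adjusted p = 0.0348, beside 15.2% of all features called), but that fit leaves 1 deficient LSK reading, which was not well above background, and takes its spread from the other groups. Tlr6, the partner for diacylated lipoproteins, read −1.66 and −1.85 in wild-type LSK and −1.42 and −1.50 in wild-type GMP, a difference of 0.29 (limma adjusted p = 1). GMP lay above LSK on both arrays for 4 of the 9 members (Cd14, Tlr1, Tlr2 and Tlr6), beside 28.5% of all features, and below it for Tlr7 and Tlr13, beside 20.1%.

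**Figure D1:**
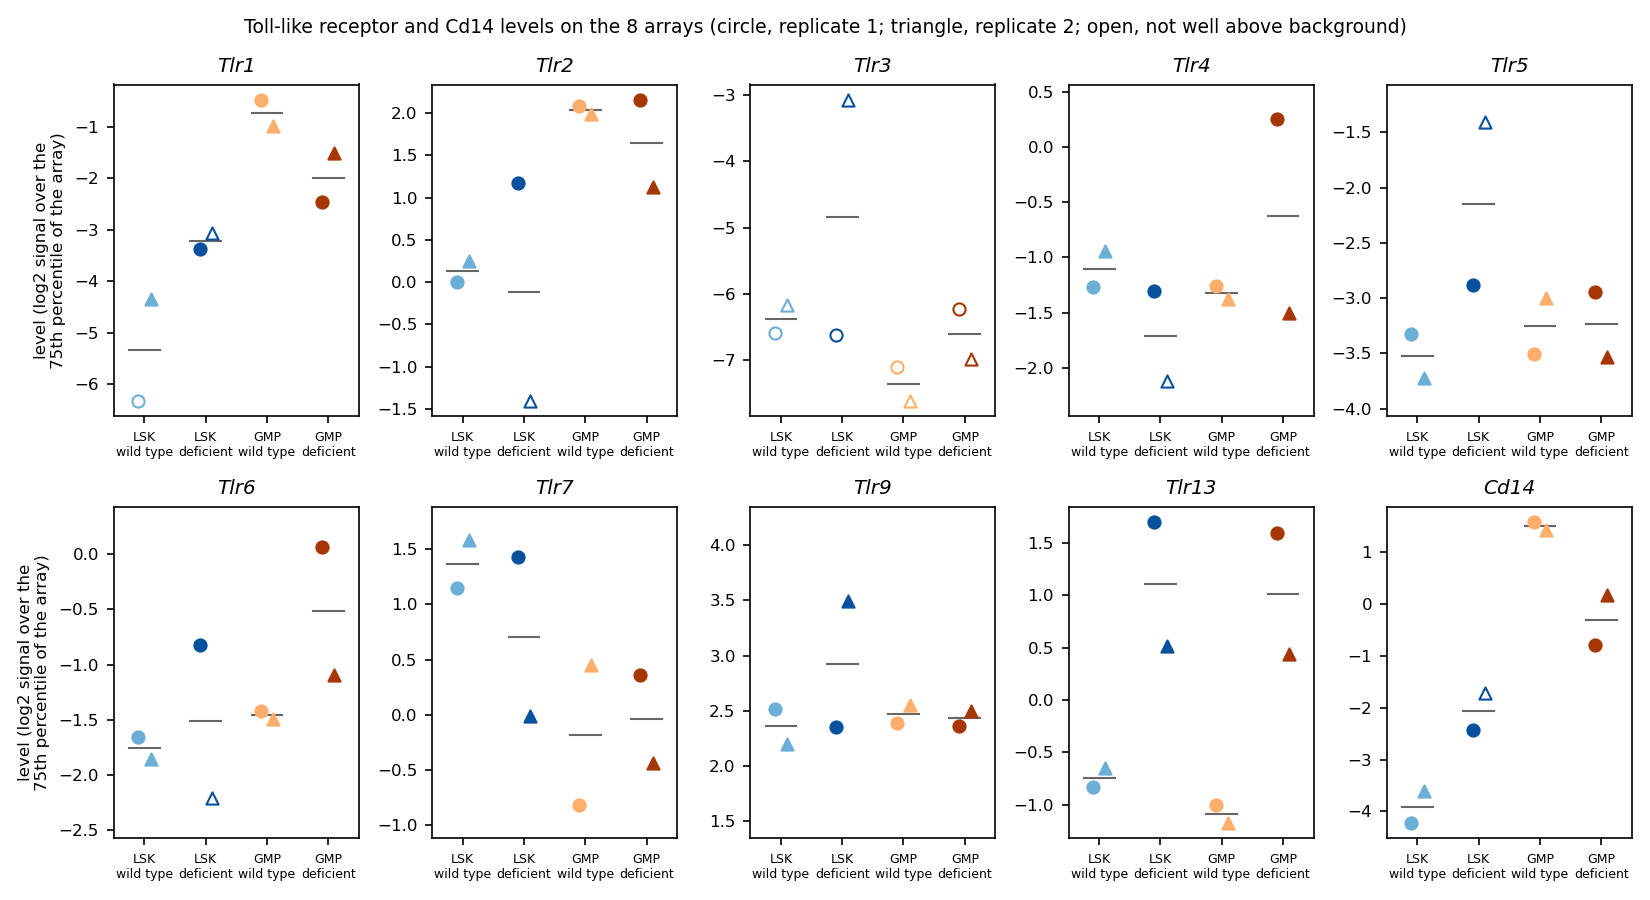
Level of each gene (log2 signal over the array's 75th percentile, y axis, scaled per gene) on the 8 arrays in the 4 groups (x axis); circles are replicate 1, triangles replicate 2, open symbols readings not well above background, and bars group means of 2 arrays. Cd14 and Tlr1 run from low in wild-type LSK to high in wild-type GMP, and Tlr13 is above 0 on the 4 deficient arrays and below 0 on the 4 wild-type arrays.

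Among the endosomal receptors the difference between populations ran the other way for Tlr7, which binds single-stranded RNA, but was not called. Its brighter probe read 1.15 and 1.58 in wild-type LSK and −0.82 and 0.45 in wild-type GMP, a difference of −1.55 (SE 0.769, limma adjusted p = 0.684). The groups did not overlap. The second Tlr7 probe read −0.68 and 0.61 against −3.91 and −3.70, and in a fit over the 39098 probes its difference was −3.77 (SE 0.964, limma adjusted p = 0.121), so both probes had the same sign and unlike sizes. In deficient mice the brighter probe read 1.43 and −0.01 in LSK and 0.36 and −0.43 in GMP, and these groups overlapped.

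Tlr9, the receptor for unmethylated CpG DNA, was well above background on all 8 arrays. In LSK it read 2.52 and 2.20 for wild type and 2.35 and 3.49 for the deficient genotype, and in GMP 2.39 and 2.55, and 2.36 and 2.50. All 4 groups overlapped, and the reading of 3.49, on the dim array, was the one apart from the rest. GMP minus LSK in wild type was 0.11 (95% interval −1.36 to 1.59, limma adjusted p = 1), so a change of 1 log2 unit in either direction lay inside the interval. Tlr3, the receptor for double-stranded RNA, was well above background on 0 of 8 arrays.

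The genotypes were next compared within each population. In LSK 0 of 9 members were called, beside 0.239% of all features; 3 (Cd14, Tlr1 and Tlr13) were higher in deficient LSK with an unadjusted p under 0.05, beside 8.83% of features in either direction. In GMP 0 of 9 were called, beside 0.146% of features; Tlr13 was higher and Cd14 lower at an unadjusted p under 0.05, beside 4.82%. Averaged over both populations 0 of 9 were called, beside 0.602%, and 1, Tlr13, had an unadjusted p under 0.05, beside 12.2%. The members' median difference was 0.56 in LSK, 0.02 in GMP and 0.26 on average, and that of all features 0.11, 0.16 and 0.16. These medians moved with single arrays: leaving 1 out gave 0.41 to 1.13 in LSK, with the highest without LSK deficient replicate 1, and −0.25 to 0.31 in GMP, with these ends without GMP deficient replicate 1 and replicate 2. On average they ran from −0.04, without LSK wild-type replicate 1, to 0.33.

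Tlr13, an endosomal receptor for bacterial ribosomal RNA, separated the genotypes on every array. It was well above background on all 8 arrays and in LSK read −0.83 and −0.65 for wild type and 1.70 and 0.52 for the deficient genotype. In GMP it read −1.0 and −1.18 for wild type and 1.59 and 0.43 for the deficient genotype. The 4 deficient arrays all lay above the 4 wild-type arrays, as they did for 2.96% of all features. The difference was 1.85 in LSK (SE 0.710, limma adjusted p = 0.55) and 2.10 in GMP (SE 0.710, limma adjusted p = 0.824). The average difference was 1.98, or 3.94-fold (SE 0.502, 95% interval 0.85 to 3.1, limma adjusted p = 0.232), and it did not pass the threshold over all features. It was positive in all 19 settings tried, from 1.55 to 2.27, with limma adjusted p from 0.0705 to 0.757. Without LSK deficient replicate 2 and GMP deficient replicate 1 it was 1.98 (limma adjusted p = 0.138). The genotype differences in LSK and GMP differed by 0.25 (SE 1.00, limma adjusted p = 0.979).

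The order of the Tlr13 group means was wild-type GMP, wild-type LSK, deficient GMP and deficient LSK (−1.09, −0.74, 1.01 and 1.11). The deficient groups overlapped and differed by 0.10 (limma adjusted p = 0.95); the wild-type groups differed by 0.35 (limma adjusted p = 1) and did not overlap. Beside these values, the mature neutrophil marker mean was at least 4.56 on each deficient array and at most −2.36 on each wild-type array. On average 11 of 11 of those markers were called higher, beside 0.602% of all features called in either direction. Among them Ngp, Mmp9, Retnlg and Itgb2l passed the filter only through deficient groups, where they are high, so their calls are a description. Within the deficient arrays Tlr13 was 1.70 and 1.59 on the replicates numbered 1 and 0.52 and 0.43 on those numbered 2, and the neutrophil marker means were 5.01 and 4.90, and 4.80 and 4.56. Whether these cells account for the Tlr13 reading was not tested.

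**Figure D2:**
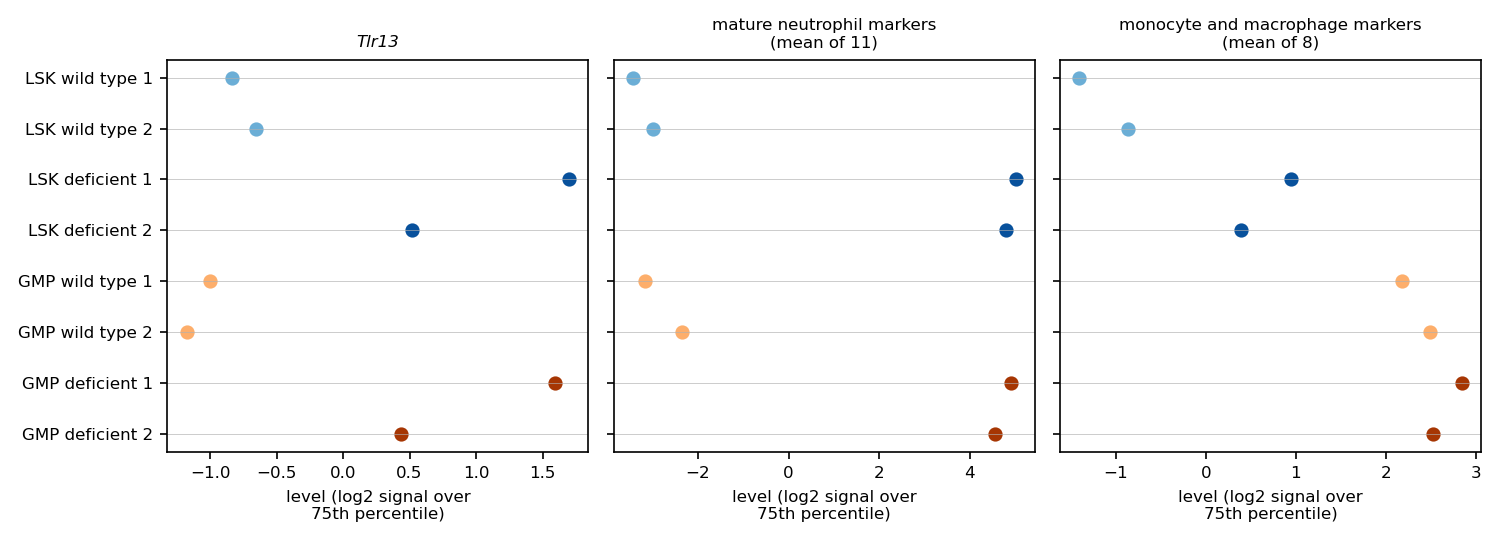
Level on each of the 8 arrays (y axis) of Tlr13, of 11 mature neutrophil markers and of 8 monocyte and macrophage markers (x axes, log2 signal over the array's 75th percentile; marker panels are list means). Tlr13 and the neutrophil markers are higher on the 4 deficient arrays than on the 4 wild-type arrays, while the monocyte and macrophage markers are lowest in wild-type LSK and above 2 on all GMP arrays.

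Cd14 and Tlr1 lay on opposite sides of wild type in the 2 populations. Both deficient LSK arrays read above both wild-type LSK arrays, and both deficient GMP arrays read below both wild-type GMP arrays, a pattern that 1.22% of all features had. On LSK deficient replicate 2 the lowest signal well above background stood at −1.44, while Cd14 read −1.71 and Tlr1 −3.07. Tlr3, which was not well above background on any array, also read −3.07 there. How low these genes were on that array cannot be read. Tlr1 was not well above background on LSK wild-type replicate 1 either. For Cd14 the difference was 1.85 in LSK (SE 0.676, limma adjusted p = 0.55) and −1.82 in GMP (SE 0.676, limma adjusted p = 0.934), so the average was 0.02. For Tlr1 it was 2.11 in LSK (SE 0.792, limma adjusted p = 0.55) and −1.26 in GMP (limma adjusted p = 0.956). The Tlr1 value in LSK was 0.17 with quantile normalization, 1.12 without LSK wild-type replicate 1 and 3.1 at most over 20 settings; in GMP it was −0.67 with normexp and −0.79 without GMP deficient replicate 1.

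The test of the difference between populations gave −3.66 for Cd14 (SE 0.956, 95% interval −5.80 to −1.53, limma adjusted p = 0.961). For Tlr1 it gave −3.37 (SE 1.12, limma adjusted p = 0.961). Neither passed, 0 of 9 members and 0% of all features did, and 2 members and 2.48% of features had an unadjusted p under 0.05. The GMP marker mean was also lower in deficient than in wild-type GMP (5.20 and 5.81 against 6.34 and 6.36). The monocyte and macrophage mean was higher in deficient than in wild-type LSK. In GMP the mean was also higher in the deficient genotype, but the median difference of these markers was 0.0975. Of them, Csf1r and Adgre1 were lower on both deficient GMP arrays, as Cd14 and Tlr1 were. Fcgr1, which passed the filter only through deficient GMP, was higher on both, and the others overlapped. The part of these markers in these values was not tested. For both genes the second deficient LSK reading was not well above background.

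**Figure D3:**
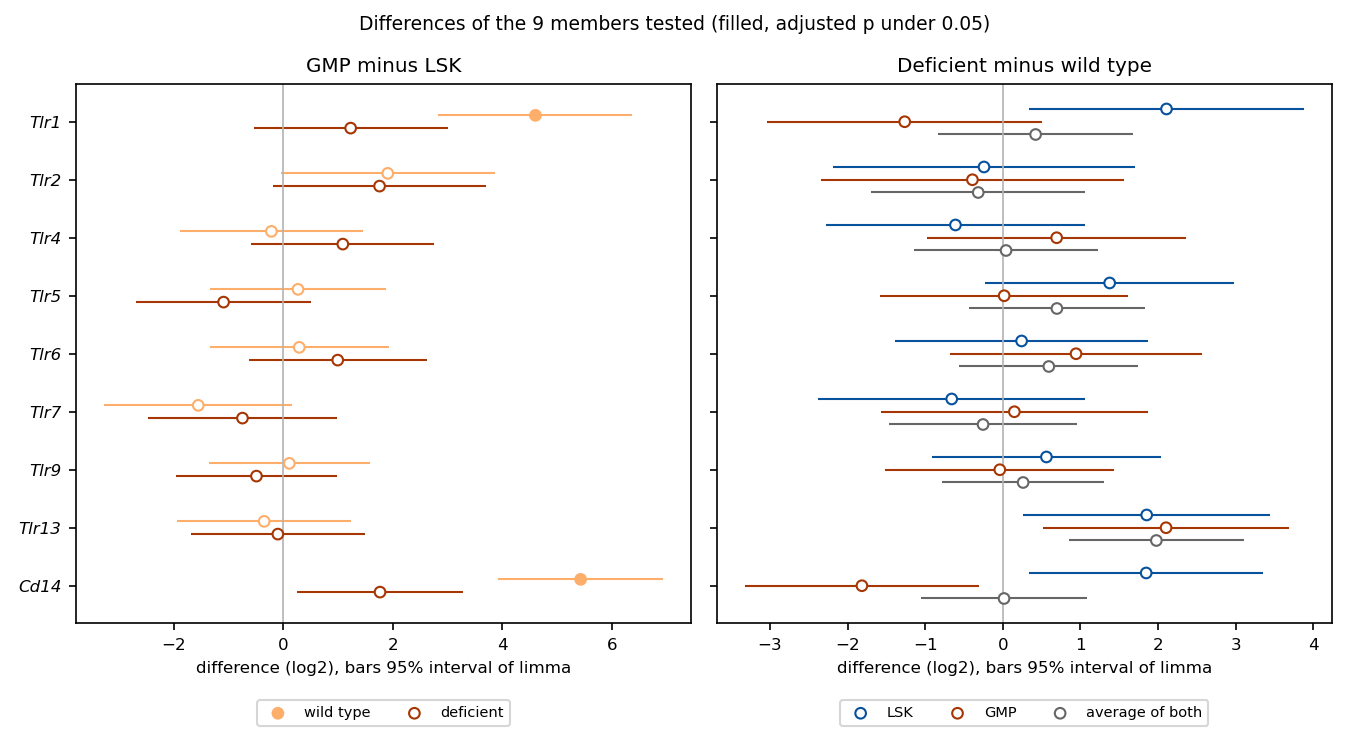
Differences in level (log2, x axis) of the 9 members tested (y axis), GMP minus LSK on the left and deficient minus wild type on the right; points are limma estimates, bars 95% intervals, and filled points have an adjusted p under 0.05. The 2 filled points are Tlr1 (4.61) and Cd14 (5.43) in wild type, and in the right panel the LSK and GMP points of Cd14 and Tlr1 lie on opposite sides of 0 while those of Tlr13 lie together near 2.

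The other members did not separate the genotypes in both populations in one direction. Tlr4, the lipopolysaccharide receptor that Cd14 serves, in LSK read −1.26 and −0.94 for wild type and −1.30 and −2.12 for the deficient genotype, and in GMP −1.26 and −1.38, and 0.25 and −1.50. The deficient LSK arrays were below wild type, the second of them not well above background, and the deficient GMP arrays fell on both sides; the differences were −0.61 (limma adjusted p = 0.714) and 0.69 (limma adjusted p = 0.973). Tlr5, the flagellin receptor, in LSK read −3.32 and −3.72 for wild type and −2.89 and −1.41 for the deficient genotype, and in GMP −3.51 and −3.0, and −2.94 and −3.53. Only the LSK groups were apart, by 1.38 (SE 0.716, limma adjusted p = 0.555), and the reading of −1.41 was not well above background. Tlr6 read −0.82 and −2.21 in deficient LSK, on both sides of wild type, and 0.06 and −1.09 in deficient GMP, above both wild-type arrays, with a GMP difference of 0.94 (SE 0.728, limma adjusted p = 0.959).

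Tlr2, Tlr9 and the brighter probe of Tlr7 had overlapping genotypes in both populations. The second Tlr7 probe read −3.91 and −3.70 in wild-type and −2.61 and −3.26 in deficient GMP, which did not overlap, and its difference there was 0.87 (SE 0.964, limma adjusted p = 0.981). In LSK it read −0.68 and 0.61 against 0.16 and −2.79, the last not well above background, and these overlapped. The average differences of Tlr2, Tlr7 (brighter probe) and Tlr9 were −0.32 (95% interval −1.70 to 1.06), −0.26 (−1.47 to 0.96) and 0.26 (−0.78 to 1.30), all of which include 0. In LSK 4 of 9 members had both deficient arrays above wild type (Cd14, Tlr1, Tlr5 and Tlr13), beside 16.4% of features, and 1 had them below, Tlr4, beside 21.1%. In GMP there were 2 above (Tlr6 and Tlr13), beside 19.8%, and 2 below (Cd14 and Tlr1), beside 19.6%.

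The rest of the pathway was taken from a list of 51 genes, of which 49 were tested; Tlr11 and Sarm1 were not. Of these 49, 1 was called, in GMP over LSK in wild type, beside 1.85% of all features, so the list's share is near the background. It was Ly86, the partner of the lipopolysaccharide regulator Cd180. Ly86 read −0.97 and 0.79 in wild-type LSK and 5.52 and 5.39 in wild-type GMP, a difference of 5.54 (46.7-fold, SE 0.795, limma adjusted p = 0.0096). In deficient mice it read 0.54 and −0.76, and 5.83 and 5.14, a difference of 5.6 that did not pass (limma adjusted p = 0.0948), and the genotypes overlapped in both populations. The Ly86 call in wild type was lost with quantile normalization (5.17, limma adjusted p = 0.0728) and with median scaling (5.87, limma adjusted p = 0.0521). It was also lost without LSK wild-type replicate 1 (4.66, limma adjusted p = 0.114) and without either GMP wild-type replicate (5.48 and 5.61, limma adjusted p = 0.0745 for both).

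Between genotypes 0 of 49 pathway genes were called in LSK, in GMP, on average or in the test of the difference between populations. At an unadjusted p under 0.05 there were 4 in LSK (2 higher), 5 in GMP (3 higher), 6 on average (3 higher) and 0 in the last of these, beside 8.83%, 4.82%, 12.2% and 2.48% of all features. Of the 49, 39 differences were below 0 in LSK (median −0.70, beside 0.11 over all features), 30 in GMP (median −0.46, beside 0.16) and 33 on average (median −0.62, beside 0.16). Without GMP deficient replicate 1 the GMP median was −0.27, beside −0.10 over all features, and without LSK deficient replicate 2 the average median was −0.25, beside 0.03. Without LSK deficient replicate 2 the LSK count was 27 below 0 and the median −0.09, beside −0.08 over all features. Without LSK deficient replicate 1, which leaves the dim array alone, it was 36 below 0, and 5 genes were called lower while 10% of all features were called. By the probe with the highest mean, all 6 transcription factors were below 0 in LSK and all 4 adaptors tested in GMP. The medians were −1.17 and −1.23 beside 0.11 and 0.16 over all features, and 0 of either group were called. Of the adaptors, Ticam2 passed the filter only through wild-type GMP, where its mean is highest, so its lower deficient value is a description. The second probe of the factor Nfkb1, well above background on all 8 arrays, went the other way in LSK. It read −0.36 and −0.09 at the ends of wild type and 0.38 and 1.04 at those of the deficient genotype. Without LSK deficient replicate 2, 5 of 6 factors were below 0 with a median of −0.47, beside −0.08. Without GMP deficient replicate 1 the adaptors' median was −0.46, beside −0.10.

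The single genes with the smallest p were a few in each direction. Cd36, a scavenger receptor that carries lipids to Tlr2, read at most −3.98 on the 4 wild-type arrays and at least −2.83 on the 4 deficient arrays, with 2 of the wild-type and 1 of the deficient readings not well above background. It passed the filter only through deficient GMP, where it is highest, so its differences are given as a description. The average difference was 3.18 and was not called (limma adjusted p = 0.161). Il1rl1, a receptor that damps Myd88 signals, had an average difference of 2.62 (SE 0.601, limma adjusted p = 0.162); its brightest probe, well above background on all 8 arrays, was called with slide row as a block (limma adjusted p = 0.0116, beside 3.23% of features called) and without GMP deficient replicate 2 (3.28, limma adjusted p = 0.0272, beside 0.563%). Lgmn, an endosomal protease that cuts Tlr9, differed by 2.40 in GMP (limma adjusted p = 0.948), and Irak2, a kinase of the pathway, by 1.93 in LSK (limma adjusted p = 0.575). The Irak2 value rested on 1 array, and without LSK deficient replicate 2 it was −0.02. Without GMP deficient replicate 1 the Lgmn value in GMP fell to 0.92. Averaged over both populations the Lgmn difference was 1.62 and was not called (limma adjusted p = 0.384).

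On the lower side, Unc93b1, the chaperone of the endosomal receptors, had a difference of −1.81 in GMP (limma adjusted p = 0.956) and −1.45 on average (limma adjusted p = 0.384). Cnpy3, another chaperone of these receptors, had −1.52 in GMP (limma adjusted p = 0.956) and −1.24 on average (limma adjusted p = 0.393). Irf8, a transcription factor of monocyte and dendritic cells, had −1.57 on average (limma adjusted p = 0.397), and the inhibitor Nfkbiz −2.19 in GMP (limma adjusted p = 0.956). Without GMP deficient replicate 1, on which Nfkbiz was not well above background, the GMP values were −1.21 for Unc93b1, −0.98 for Cnpy3 and −0.73 for Nfkbiz. In LSK, Ly96, the partner of Tlr4, had −2.12, the protease Ctsl −2.77 and the inhibitor Tnfaip3 −2.32, each with a limma adjusted p of 0.55. None of these 3 was well above background on LSK deficient replicate 2, and without it their values were −1.18, −0.46 and −0.53. None of these passed the test.

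**Figure D4:**
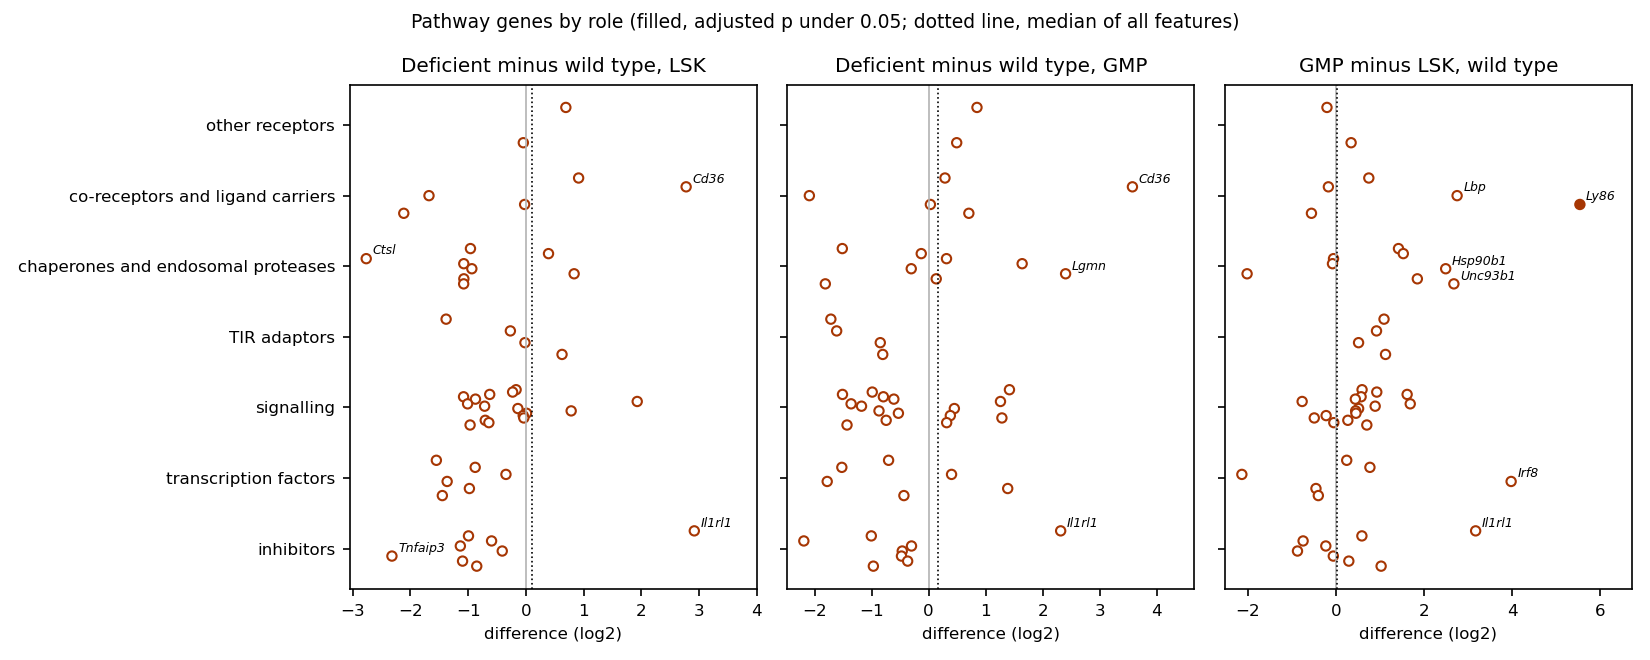
Difference in level (log2, x axis) of the 49 pathway genes tested, by role (y axis), deficient minus wild type in LSK and in GMP and GMP minus LSK in wild type; each point is a gene, filled where its adjusted p is under 0.05, and the dotted line is the median of all features. Only Ly86 (5.54, right panel) is filled, and 39 of 49 points lie below 0 in the LSK panel.

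The genes whose levels followed each member most closely were found by Pearson's r over the 8 arrays, among 14451 features well above background on at least 6 arrays; the arrays share groups and depth, so r is a description. Tlr13 was closest to Adam8 (r = 0.992), Pirb (0.990) and Nxpe2 (0.982). Cd14 was closest to Elane, the neutrophil elastase gene of early granulocyte cells (0.991), Abcd2 (0.989) and Arhgdib (0.986). Tlr1 was closest to Prss16 (0.974), Slc22a4 (0.968) and Cd14 itself (0.968). Without LSK deficient replicate 2 these 9 values lay between 0.969 and 0.994.

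Tlr7 was closest to the interferon-induced Oasl2 (0.950), Dnaaf3 (0.944) and the interferon-induced Tgtp2 (0.943). Tlr2 was closest to Pik3cb (0.986), Gtse1 (0.984) and Incenp (0.982), Tlr4 to Tbl1xr1 (0.989), Lemd3 and Fli1 (both 0.988), and Tlr6 to Scyl2 (0.991), Cenpe (0.977) and Anxa1 (0.975). Tlr5 was closest to Irgc1 (0.988), Padi1 and Tex19.2 (both 0.985), and without LSK deficient replicate 2 its values were 0.934, 0.915 and 0.964. Tlr9 was closest to Pacsin1 (0.998), Ctrl (0.997) and Rprml (0.993), which fell to 0.984, 0.984 and 0.918 without that array.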

How the data were processed

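Gene expression was measured on 8 1-colour Agilent arrays, and per the file headers the authors scanned and extracted them with Agilent Feature Extraction 10.7.3.1, which gave the deposited processed intensity of each spot, already background-subtracted. The deposited value table holds log2 values centred per probe, as its match to the centred scanner values shows (r of 0.999719 to 0.999968 per array); its column medians were −0.264 to 1.24, what it was centred on is unknown, and it was used as an alternative. Intensities were scaled to the 75th percentile of non-control spots on each array, and log2 was taken. Spots of a probe were averaged, and a gene was represented by its kept probe with the highest mean, named through RefSeq accessions (26582 probes had a symbol). Array depth limits precision, with 2 arrays a group.

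All 4 groups were fitted together with limma 3.58.1 in R 4.3.3, with 4 residual and 5.75 prior degrees of freedom; the script was tested on simulated data. The members and lists were chosen with earlier results of these data known. All members were named, with every pathway gene called and the 3 smallest p per direction and genotype contrast. Alternatives were other background corrections, normalizations, filters, probe rules, array weights, blocks, the deposited table, each array left out, and 2 added after seeing the data (arrays that stand apart left out, and a crossed block in LSK).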

Additional observations from a re-analysis of the deposited data

Results flagged for a closer look

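Cd14 and Tlr1 each had both deficient arrays above wild type in LSK and both below wild type in GMP, which 1.22% of features had. For Cd14 the difference was 1.85 in LSK and −1.82 in GMP, and the difference between these was −3.66. For Tlr1 the values were 2.11, −1.26 and −3.37. The difference between populations did not pass for either gene (limma adjusted p = 0.961 for both, and 0.168 to 1 for Cd14 and 0.187 to 1 for Tlr1 over 18 settings). It kept its sign in all 18 settings, from −4.15 to −2.82 for Cd14 and from −4.37 to −1.48 for Tlr1. LSK deficient replicate 2 was not well above background for either gene, and LSK wild-type replicate 1 was not for Tlr1. How low these genes were on LSK deficient replicate 2 cannot be read, as its lowest signal well above background stood at −1.44.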

How the results depend on the processing

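Of the 9 members, 2 were called between populations in wild type, Cd14 and Tlr1. The Tlr1 call is a description, because its probe passed the filter only through the GMP groups. The count fell to 1, Cd14, with normexp, quantile normalization, median scaling or no filter on dim probes. It fell to 0 with probes well above background on all arrays, which left 3 members to test. With array weights it rose to 3, with Tlr2 added, beside 7.55% of all features called. Leaving out 1 array gave 0 to 2 calls, with 0 when any wild-type array was left out. In deficient mice the count of 0 became 1 without LSK deficient replicate 1 and lay between 0 and 1. Pathway calls in LSK were 0 to 5 when 1 array was left out, with 5 without LSK deficient replicate 1 (10% of all features); on average over populations they were 0 to 1. Pathway calls on average became 1 with the mean of probes and 2 with the slide row as a replicate block (3.23% of features), and in GMP 1 with that block. Cd36 was among the 2 and was the 1 in GMP; it passed the filter only through deficient GMP; the 1 with the mean of probes was Il1rl1, of which 2 of the 3 probes averaged passed only through that group. In wild type the pathway count of 1 became 2 with normexp, 0 with quantile normalization and median scaling, 8 with array weights (7.55% of features) and 6 without both arrays that stand apart (4.8%), and lay between 0 and 2 when 1 array was left out. In deficient mice it became 4 with normexp (2.96% of features) and 8 without LSK deficient replicate 1 (15.2%), so it lay between 0 and 8.

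With normexp the deficient GMP minus LSK difference turned to −0.078 for Tlr1 and −0.009 for Tlr6. Without both arrays that stand apart it turned to −0.045 for Tlr2, −0.19 for Tlr4 and −0.28 for Tlr6. The cause was not tested. A sign change of a difference smaller than its standard error was counted as a move, not as a reversal; 82 of 999 member values changed sign, and 902 kept direction and side of the threshold. Median scaling moved the median of all features to −0.46 in LSK, −0.14 in GMP, −0.27 on average, 0.34 in wild type and 0.54 in deficient mice, and normexp moved it to 0.41 in LSK.

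The labels do not say whether the replicate numbers pair the samples. Correlations of replicate deviations between groups ran from −0.344 to 0.343, with both signs, which cannot settle it. With the replicate number as a block, member calls were 0 in LSK, 0 in GMP and 2 in wild type, and features called 81, 69 and 523; the block changed no member call. With slide row as a block, which follows the replicate numbers within each population, 480 features were called in LSK and 193 in GMP. Without a block these were 67 and 41. With crossed numbers in LSK there were 624 features and 0 members. Depth limits the low probes most on the dim array.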
